A study of Mus musculus with 2 samples.

Results

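The astroglial genes examined here are 9 genes by which astrocytes are commonly recognised, *S100b*, *Aldh1l1*, *Slc1a3*, *Slc1a2*, *Gfap*, *Aldoc*, *Apoe*, *Clu* and *Aqp4*. They were chosen by name. Of these, 5 have a row among the 10666 genes of the expression table (*S100b*, *Aldh1l1*, *Slc1a3*, *Slc1a2* and *Apoe*). *Gfap*, *Aldoc*, *Clu* and *Aqp4* were not analysed here. The cells come from neurospheres, balls of dividing neural progenitors that grow in suspension. They were started from dorsal telencephalon of C57BL/6 wild-type mice at E14.5 (embryonic day) and kept with the growth factors EGF and bFGF, each at 10 ng/ml. By the methods, the spheres were dissociated and replated several times before the library was made, and how many embryos went into a culture is not given in the sources used here. There are 2 replicate cultures of this single condition, measured by droplet single-cell RNA-seq, so there is no second group to compare and no test between conditions was possible. Cells were not treated as replicates, and each value is given for each culture.

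Astrocytes clear glutamate and potassium from around synapses, supply lipids and metabolites to neurons, and arise from the same radial glia that earlier produce neurons. Several of the genes used to recognise astrocytes are therefore already active in radial glia and in neural stem cells in culture. *Slc1a3* (GLAST) and *Slc1a2* (GLT-1) encode the main glial glutamate transporters, and *Slc1a3* is the earlier of the pair to appear in development. *Aldh1l1* encodes a folate enzyme, *Apoe* a secreted carrier of lipids, and *S100b* a calcium-binding protein that oligodendrocyte-lineage cells also make.

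Culture 1 holds 5748 cells with a median of 19477 total UMIs (unique molecular identifiers, estimated molecules counted per cell), and culture 2 holds 7057 cells with a median of 14637. Because culture 1 was deeper, detection is also given over cells of 15018 to 17565 total UMIs, a range that both cultures share. It holds 809 cells of culture 1 (median 16398 UMIs) and 1472 of culture 2 (median 16117). A gene is called detected in a cell when its deposited value is above 0, and intervals for shares of cells are exact 95% Clopper-Pearson intervals that cover counting error only. The cultures share 48 cell barcodes.

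The deposited values are normalized for the depth of each cell, but their scale is set separately for each gene and culture. In cells within 2% of 15000 total UMIs, the lowest cluster of *Apoe* values above 0 had a median of 0.231 in culture 1 and of 1.71 in culture 2, and the next cluster a median of 0.529 and of 3.56. The lowest cluster of *Aldh1l1* values had a median of 0.975 in culture 1 and of 1.60 in culture 2. At the other end, 3 cells of culture 2 hold *Apoe* at 791, the highest value of the whole table, where the highest *Apoe* value of culture 1 is 65.4. Levels were therefore compared within a culture only, and the cultures were compared by the share of cells that detect a gene.

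Of the members, *S100b* lies on chromosome 10 from 76253853 to 76261159 (plus strand), *Aldh1l1* on chromosome 6 from 90486427 to 90600203 (plus), *Slc1a3* on chromosome 15 from 8634124 to 8710764 (minus), *Slc1a2* on chromosome 2 from 102658659 to 102790784 (plus) and *Apoe* on chromosome 7 from 19696109 to 19699188 (minus), all in GRCm38. All are protein-coding. *S100b* overlaps *Dip2a* on the opposite strand, and *Apoe* overlaps no other annotated gene. The 250 bases before the RefSeq start site (GRCm38.p6) are shown for *Slc1a3* and *Apoe*, the members most closely correlated over cells, and for *S100b*, which stood apart from them. Capitals mark every match, on either strand, to the motifs searched. The TATA box, which helps to place the start of transcription in some promoters, was searched as TATAAA. The GC box, bound by SP1 and related factors, was searched as GGGCGG. Half-sites of nuclear factor I, a family with a role in the making of astrocytes, were searched as TTGGCA. The motif of STAT factors, which act in astrocyte differentiation, was searched as TTCNNNGAA. The motif of the SOX factors, many of which are active in neural progenitors and glia, was searched as ACAAAG. No marked matches overlap each other.
Slc1a3, chr15:8710808-8711057, minus strand: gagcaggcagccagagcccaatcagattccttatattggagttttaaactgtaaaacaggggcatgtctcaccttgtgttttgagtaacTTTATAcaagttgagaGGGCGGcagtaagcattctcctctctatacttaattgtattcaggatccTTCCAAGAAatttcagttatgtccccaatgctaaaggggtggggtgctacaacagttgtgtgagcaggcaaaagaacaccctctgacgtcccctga
Apoe, chr7:19699189-19699438, minus strand: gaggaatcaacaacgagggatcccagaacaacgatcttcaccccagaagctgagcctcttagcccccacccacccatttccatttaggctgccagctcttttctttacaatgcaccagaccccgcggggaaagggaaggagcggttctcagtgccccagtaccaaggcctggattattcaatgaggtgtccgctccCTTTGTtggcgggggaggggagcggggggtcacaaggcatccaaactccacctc
S100b, chr10:76253586-76253835, plus strand: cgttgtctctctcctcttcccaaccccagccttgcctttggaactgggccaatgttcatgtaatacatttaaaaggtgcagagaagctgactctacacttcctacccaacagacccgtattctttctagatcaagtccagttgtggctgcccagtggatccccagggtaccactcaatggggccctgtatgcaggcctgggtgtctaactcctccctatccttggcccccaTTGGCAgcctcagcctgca

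The *Slc1a3* window held a TATA box (in reverse complement), a GC box and the STAT motif, 161, 145 and 96 bases before the start. The *Apoe* window held the SOX motif alone, in reverse complement and 54 bases before the start, and the *S100b* window the nuclear factor I half-site alone, 19 bases before it. Among all 32851 windows of this length, 12.4% held the TATA box, 32.7% the GC box, 12.3% the nuclear factor I half-site, 7.02% the STAT motif and 16.5% the SOX motif. These are matches of letters only, and the windows shown shared none of the motifs searched. RefSeq lists other starts for *Apoe*, and the window shown is the one at the start of the gene as positioned above. Of the windows at those other starts, one held the TATA box and another the nuclear factor I half-site, so the lack of a shared motif holds for the window shown only.

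The glutamate transporter *Slc1a3* was detected in nearly every cell of both cultures, whereas *S100b* was rare, and the order of the members was the same in each culture. *Slc1a3* was detected in 92.1% of cells of culture 1 (interval 91.4% to 92.8%) and in 94.0% of culture 2 (93.5% to 94.6%). *Apoe* came next, in 72.3% of cells of culture 1 (71.1% to 73.5%) and in 40.6% of culture 2 (39.4% to 41.7%). *Aldh1l1* was detected in 43.2% (41.9% to 44.5%) and 28.8% (27.8% to 29.9%), and *Slc1a2* in 39.9% (38.6% to 41.2%) and 24.4% (23.4% to 25.4%). *S100b* was detected in 18.6% (17.6% to 19.6%) and 6.65% (6.08% to 7.25%). Within each culture the intervals of neighbouring members in this order did not overlap. Over both cultures the shares were 93.1% ± 1.39 for *Slc1a3*, 56.4% ± 22.5 for *Apoe*, 36.0% ± 10.2 for *Aldh1l1*, 32.1% ± 11.0 for *Slc1a2* and 12.6% ± 8.46 for *S100b* (SD, n = 2). *Slc1a3* lay above the others, and *S100b* below them, by more than the SD of either neighbour, while *Apoe*, *Aldh1l1* and *Slc1a2* each lay within 1 SD of the next, so their order rests on its being the same in both cultures.

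Depth moves with part of the difference between the cultures. In the shared range of total UMIs, *Aldh1l1* was detected in 36.7% of cells of culture 1 (33.4% to 40.1%) and 33.3% of culture 2 (30.9% to 35.8%), intervals that overlap. *Slc1a3* was detected in 94.2% (92.3% to 95.7%) and 95.1% (93.9% to 96.2%), which overlap as well. *Apoe* kept nearly all of its difference, with 69.2% (65.9% to 72.4%) against 39.9% (37.4% to 42.5%). *Slc1a2*, at 34.4% (31.1% to 37.8%) against 24.4% (22.2% to 26.7%), and *S100b*, at 13.7% (11.4% to 16.3%) against 7.54% (6.24% to 9.01%), also stayed higher in culture 1. With 1 culture on each side the difference has no replicate check.

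**Figure D1:**
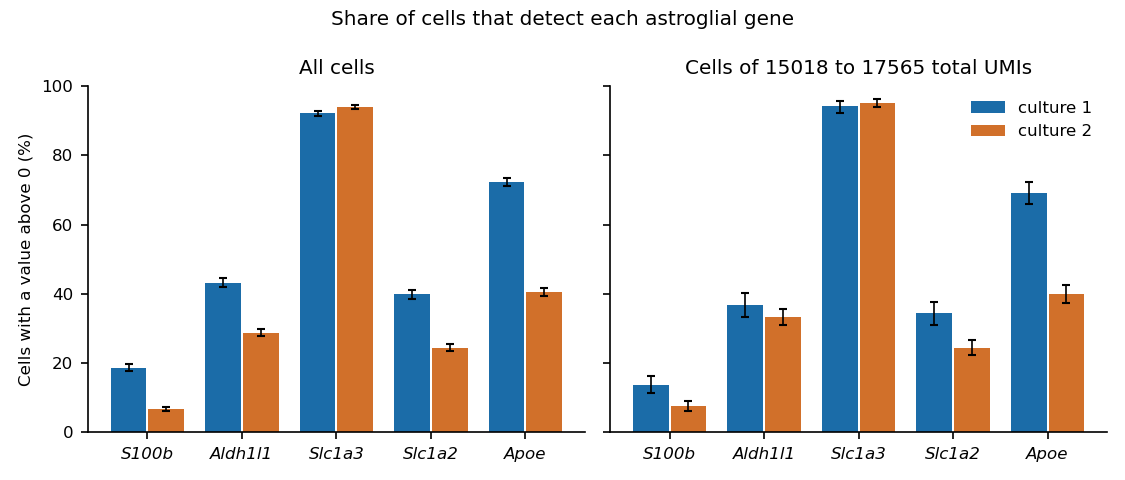
Share of cells with a value above 0 (y axis, percent) for the 5 astroglial genes (x axis) in culture 1 (blue) and culture 2 (orange), over all cells (left) and cells of 15018 to 17565 total UMIs (right); bars are shares and error lines exact 95% binomial intervals. *Slc1a3* sits above 90% in every panel, and *Apoe* keeps its gap between the cultures at matched depth while that of *Aldh1l1* closes.

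How unevenly a gene was spread over cells was read as well, a measure that depends in part on how many cells detect the gene. The 10% of cells with the highest values held 25.1% of the summed *Slc1a3* signal in culture 1 and 27.7% in culture 2. For *Apoe* the same share of cells held 60.3% and 82.5%, and for *Aldh1l1* 48.3% and 58.7%. *Slc1a2* had 48.7% and 62.0%, and *S100b*, which few cells detect, had 83.8% and 100%. Only 6.65% of culture 2 cells detect *S100b*, so its 100% there was fixed by detection. *Slc1a3* thus had the broadest signal of the members. A cell detected 2.66 of the 5 members on average in culture 1 and 1.94 in culture 2, or 2.48 and 2.0 at matched depth. All 5 were detected together in 277 cells of culture 1 (4.82%) and in 35 of culture 2 (0.496%), and none in 3.06% and 3.17%.

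Cells rich in *Slc1a3* detected the other glial genes more often, and this held in both cultures for *Apoe*, *Aldh1l1* and *Slc1a2*. When the cells of a culture were put into 4 classes of equal size by their *Slc1a3* value, *Apoe* was detected in 44.3%, 66.9%, 85.6% and 92.5% of cells from the lowest class to the highest in culture 1. In culture 2 the same classes gave 28.8%, 36.3%, 44.9% and 52.3%. *Aldh1l1* was detected in 19.3% of the lowest class and 61.3% of the highest in culture 1, and in culture 2 these were 22.2% and 37.2%. *Slc1a2* went from 22.8% to 49.8% and, in culture 2, from 17.7% to 29.7%. The lowest class of culture 1 was also the shallowest, with a median of 15219 UMIs against 20481 in the highest. At matched depth, *Apoe* still went from 49.8% to 89.1% in culture 1, and its culture 2 shares were 27.2% and 54.9%. *Aldh1l1* went from 18.2% to 52.0%, and in culture 2 from 28.0% to 44.0%. *Slc1a2* went from 24.1% to 41.6%, and in culture 2 from 20.4% to 31.5%. For *Slc1a2* in culture 2 the difference lay among cells that detect *Slc1a3*, since at matched depth it was detected in 24.4% of cells with *Slc1a3* and in 25% of the 72 cells without it. *S100b* followed another course in culture 1, with 16.9%, 12.9%, 18.6% and 26.0% from the lowest class to the highest, and in culture 2 it had 4.48%, 6.07%, 7.31% and 8.73%.

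**Figure D2:**
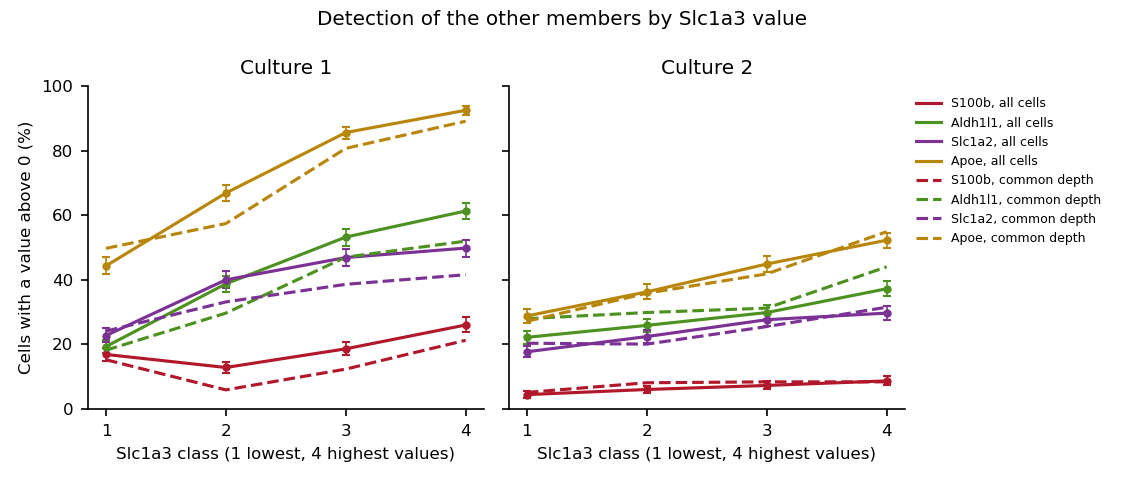
Share of cells (y axis, percent) that detect *S100b*, *Aldh1l1*, *Slc1a2* or *Apoe* in 4 equal classes of cells ordered by *Slc1a3* value (x axis), in culture 1 (left) and culture 2 (right); solid lines with exact 95% binomial intervals are all cells, and dashed lines are cells of 15018 to 17565 total UMIs. *Apoe* climbs from 44.3% to 92.5% in culture 1, in culture 2 from 28.8% to 52.3%, and *S100b* in culture 1 is lowest in the second class.

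The same pattern was seen in the Pearson correlation of log2(value + 1) over the cells of a culture, which is a description of cells that share a library and differ in depth. A pair was counted when it reached 0.1 in both cultures. Of the 10 pairs of members 4 did so, *Slc1a3* with *Apoe* (0.458 in culture 1 and 0.195 in culture 2), *Slc1a3* with *Aldh1l1* (0.319 and 0.116), *Slc1a3* with *Slc1a2* (0.209 and 0.123) and *Aldh1l1* with *Apoe* (0.292 and 0.164). Among all 53305 pairs of a member with another gene, 1.12% reached that level. Removing total UMIs and the cell-cycle position left the 4 pairs at 0.162 to 0.380 in culture 1 and 0.122 to 0.206 in culture 2. The glutamate transporter *Slc1a2* and *Aldh1l1* were nearly unrelated to each other, at 0.054 and 0.003. Each coefficient of the 4 pairs was larger in culture 1, the deeper library, and stayed larger there in the shared range of depth. In that range *Slc1a3* with *Apoe* had 0.413 in culture 1 and 0.207 in culture 2. *Slc1a3* with *Aldh1l1* had 0.270 and 0.141, and *Aldh1l1* with *Apoe* 0.271 and 0.189. The scale of the values differs between the cultures as well, and the cause of the gap was not tested. Over all cells no pair reached 0.2 in both cultures. In the shared range of depth 3 of the 4 pairs kept 0.1, while *Slc1a3* with *Slc1a2* had 0.167 in culture 1 and 0.091 in culture 2.

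**Figure D3:**
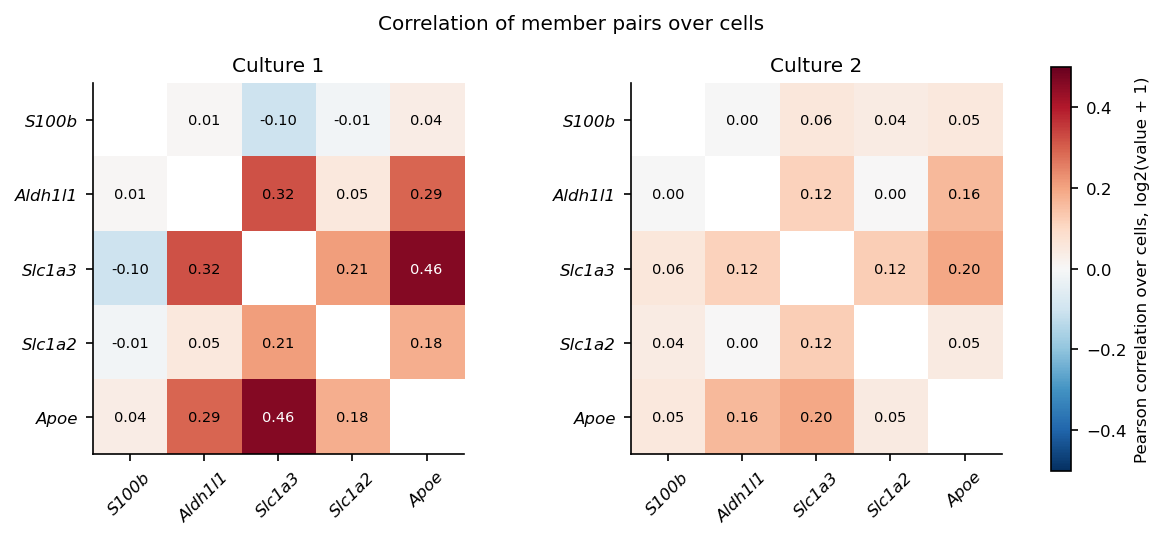
Pearson correlation over cells of log2(value + 1) for each pair of members (rows and columns), in culture 1 (left, 5748 cells) and culture 2 (right, 7057 cells), with colour from blue (negative) to red (positive). The strongest cell is *Slc1a3* with *Apoe* at 0.46 in culture 1 and 0.20 in culture 2, and the *S100b* row stays between -0.10 and 0.06.

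*S100b* was the exception, and its sign depended on the measure. With *Slc1a3* its Pearson correlation was -0.103 in culture 1 while the Spearman rank correlation was 0.079, and in culture 2 the values were 0.055 and 0.064. Cells with low and with high *S100b* values differed in the other members. Most *S100b* values, once multiplied by the total UMIs of the cell, lie near whole multiples of the most frequent such product, called a step here, and cells were sorted by the number of steps. Whether a step is 1 molecule was not tested. In culture 1, *Slc1a3* was detected in 92.8% of the 4678 cells without *S100b*, in 94.4% of the 682 cells at 1 step and in 90.8% of the 250 cells at 2 or 3 steps. It was detected in 58.0% (49.3% to 66.3%) of the 138 cells at 4 or more steps. *Apoe* ran from 71.2% through 80.5% and 83.2% to 50.7% over these classes, *Aldh1l1* from 41.3% through 55.1% and 52.8% to 30.4%, and *Slc1a2* from 38.4% through 48.5% and 51.6% to 25.4%. The middle classes, which held *Apoe*, *Aldh1l1* and *Slc1a2* more often, were deeper (medians of 22075 and 22900 UMIs against 18998 without *S100b*), and 74 and 26 of their cells lie in the shared range of depth. There, from 0 steps through 1 to 2 or 3, *Aldh1l1* was detected in 35.8%, 44.6% and 42.3% of cells. *Slc1a2* had 33.1%, 48.6% and 34.6%, and *Apoe* 69.6%, 67.6% and 84.6%. The highest class held all of the other members least often, and in the 11 of its cells in the shared range of depth *Slc1a3* was detected in 36.4%.

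The cells with most *S100b* more often held some genes of the oligodendrocyte lineage, *Mbp* and *Sox10* in both cultures. *Olig2* was not among these in culture 1. *Mbp*, which encodes myelin basic protein, was detected in 3.91% of culture 1 cells without *S100b* and in 46.4% (37.9% to 55.1%) of those at 4 or more steps. *Sox10*, a transcription factor of the oligodendrocyte lineage, went from 2.74% to 45.7% (37.2% to 54.3%), and *Cnp*, a myelin-associated enzyme, from 46.3% to 81.9% (74.4% to 87.9%). *Olig2*, detected in 97.4% of cells without *S100b*, was detected in 89.1%. The median depth was 18998 UMIs in cells without *S100b* and 17774 in the class at 4 or more steps. In culture 2 that class holds 16 cells, of which 37.5% (15.2% to 64.6%) detected *Mbp* and 43.8% (19.8% to 70.1%) *Sox10*, against 0.759% and 0.546% of the 6588 cells without *S100b*. *Slc1a3* was detected in 81.2% (54.4% to 96.0%) of those 16 cells and in 93.8% of the cells without *S100b*, an interval that holds both the share of culture 1 and that of the cells without *S100b*. Of those 16 cells, 2 lie in the shared range of depth, too few to read.

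**Figure D4:**
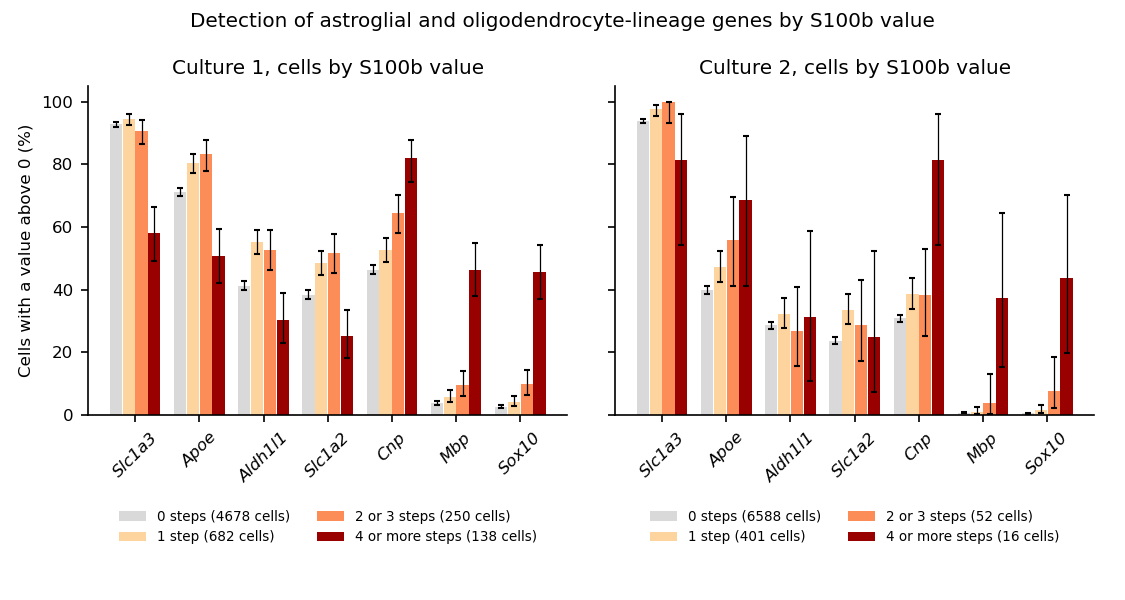
Share of cells (y axis, percent) that detect 4 astroglial genes and the oligodendrocyte-lineage genes *Cnp*, *Mbp* and *Sox10* (x axis) in cells sorted by *S100b* value in steps, from 0 steps (grey) to 4 or more (dark red), in culture 1 (left) and culture 2 (right); error lines are exact 95% binomial intervals. In culture 1 the dark red bars are the lowest for the 4 astroglial genes (58.0% for *Slc1a3*) and the highest for *Mbp* (46.4%) and *Sox10* (45.7%), while in culture 2 they rest on 16 cells.

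The genes closest to each member were read in the same cells. For *S100b* they include *Sox10* and *Mbp*, shown above by *S100b* value, so this restates that result and is no separate support. For each member the genes with the largest lower correlation of the cultures were taken from all 10661 other genes, up to 3 of which are named. For *S100b* they were *Sox10* (0.379 in culture 1 and 0.155 in culture 2), *Mbp* (0.463 and 0.154) and *Lims2* (0.289 and 0.12). For *Slc1a3* they were *Igfbp2*, an IGF-binding protein (0.699 and 0.489), the brain metallothionein *Mt3* (0.695 and 0.482) and the bicarbonate transporter *Slc4a4* (0.671 and 0.407). *Apoe* lay closest to *Mt3* (0.530 and 0.328), and *Igfbp2* (0.454 and 0.285) was among its closest genes too. *Aldh1l1* lay closest to *Mt3* (0.372 and 0.205) and *Dbi* (0.334 and 0.175). *Slc1a2* had weaker neighbours, the endothelin receptor *Ednrb* (0.210 and 0.167), the respiratory chain subunit *Cox8a* (0.214 and 0.161) and *Mt3* (0.261 and 0.151). *Mt3* was therefore among the closest genes of all the members but *S100b*. At 0.1 in both cultures, 401 other genes were correlated with *Slc1a3*, 126 with *Apoe*, 41 with *Slc1a2*, 26 with *Aldh1l1* and 5 with *S100b*, and these counts follow how widely each gene was detected, apart from *Aldh1l1*.

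Of a wider list of 42 astroglial genes 32 have a row, and they were correlated most often with *Slc1a3* and *Apoe*. With *Slc1a3*, 17 of the 32 reached 0.1 in both cultures, with *Apoe* 13, with *Aldh1l1* 5, with *Slc1a2* 3 and with *S100b* 0. Of all other genes, 3.76% reached that level with *Slc1a3*, 1.18% with *Apoe*, 0.244% with *Aldh1l1*, 0.385% with *Slc1a2* and 0.0469% with *S100b*, so the count of 0 for *S100b* cannot be told apart from its background. The median correlation of the list with *Slc1a3* was 0.270 in culture 1 and 0.132 in culture 2, where that of all other genes was 0.00703 and 0.0118. The list members correlated with both *Slc1a3* and *Apoe* include the gap junction gene *Gja1* (connexin 43), *Mlc1* and its partner *Hepacam*, the GABA transporter *Slc6a11*, *Slc4a4*, *Mt2*, *Mt3*, *Dbi* and *Sparcl1*. *Mlc1*, for example, had 0.516 and 0.267 with *Slc1a3* and 0.397 and 0.171 with *Apoe*. *Gja1* had 0.404 and 0.188 with *Slc1a3* and 0.393 and 0.151 with *Apoe*. The list was not uniform. *Sox9*, a transcription factor of glial progenitors that was singled out after its values were seen, had -0.303 and -0.063 with *Slc1a3*. At -0.1 in both cultures stood 0 of the 32 for each member, beside 0.407% of all pairs.

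Of 14 radial glia genes 11 have a row, and *Fabp7* (0.511 and 0.195), *Hes1* (0.280 and 0.165) and *Dbi* (0.594 and 0.290) reached 0.1 with *Slc1a3* in both cultures. With *Aldh1l1* 2 of the 11 did so, with *Apoe* 1, and with *Slc1a2* and *S100b* 0, and *Dbi*, which is in the astroglial list too, is among them for each of the first 3 members. The intermediate filament gene *Vim* had opposite signs, 0.12 in culture 1 and -0.335 in culture 2. Of the oligodendrocyte progenitor list 7 of 12 genes have a row, and *Lhfpl3* was below -0.1 with *Slc1a3* in both cultures (-0.511 and -0.154). With *S100b*, 1 of the 7, *Sox10*, reached 0.1 in both cultures, beside 0.0469% of all other genes. Of the rest, *Olig2* had -0.047 and 0.030 with *S100b*, *Nkx2-2* 0.093 and 0.010, *Lhfpl3* 0.097 and 0.037, and *Tnr* 0.355 and 0.072. The progenitor markers *Pdgfra* (-0.0006 and -0.010) and *Cspg4* (0.026 and 0.016) were nearly unrelated to *S100b*. Of the neuroblast list 8 of 16 have a row, and *Stmn3* was below -0.1 with *Slc1a3* (-0.185 and -0.212). Of the oligodendrocyte list *Mbp* and *Cnp* have a row, and of the endothelium list *Emcn* alone, which was detected in 0.557% and 0.482% of cells. The microglia, mural and meningeal, and choroid plexus and ependyma lists have no row and were not analysed here.

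Detection was then read in the 5% of cells of each culture with the highest mean log2(value + 1) over a list, a range of a continuous score and not a cell type. In the cells highest for the other astroglial genes, *Apoe* was detected in 95.5% (92.4% to 97.6%) in culture 1 and 74.8% (69.9% to 79.2%) in culture 2, against 71.1% and 38.8% of the rest. *Aldh1l1* was detected in 69.7% and 47.6% of them, against 41.8% and 27.8%, and *Slc1a2* in 70.0% and 37.1%, against 38.3% and 23.7%. *S100b* was more often detected there as well, in 42.9% and 13.3% against 17.3% and 6.29%. Median depth was 20933 and 15037 UMIs in these cells and 19335 and 14614 in the rest. All of the members were thus more often detected in these cells in both cultures. The level of *S100b* did not follow the score in culture 1. Over all cells its Pearson correlation with the score was -0.013 in culture 1 and 0.103 in culture 2. The other members had 0.735 and 0.544 (*Slc1a3*), 0.599 and 0.367 (*Apoe*), 0.383 and 0.202 (*Aldh1l1*), and 0.295 and 0.164 (*Slc1a2*).

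In the cells highest for the oligodendrocyte progenitor list, *Slc1a3*, *Apoe* and *Aldh1l1* were less often detected and *S100b* more often. *Slc1a3* was detected in 57.1% (51.2% to 62.9%) of them in culture 1 and 86.7% (82.7% to 90.1%) in culture 2, against 93.9% and 94.4% of the rest. *Apoe* was detected in 31.7% and 31.4%, against 74.5% and 41.1%, and *Aldh1l1* in 7.67% and 19%, against 45% and 29.3%. *S100b* was detected in 28.6% and 11.3%, against 18.1% and 6.40%. Over all cells the cultures differed in direction for *Slc1a2*, with 15.7% against 41.1% in culture 1 and 27.2% against 24.2% in culture 2. These cells were shallower, with medians of 11440 UMIs against 19721 in culture 1 and 13298 against 14669 in culture 2, and at matched depth 25 and 36 of them remain. There, *Slc1a3* was detected in 76.0% against 94.8% in culture 1 and in 88.9% against 95.3% in culture 2. *Apoe* was detected in 48.0% against 69.9% and in 30.6% against 40.2%, and *Aldh1l1* in 12% against 37.5% and in 22.2% against 33.6%. *S100b* had 24.0% against 13.4% in culture 1, but 8.33% against 7.52% in culture 2, so its excess there nearly closed at matched depth. *Slc1a2* was then lower in both cultures, with 16.0% against 34.9% and 19.4% against 24.5%. In culture 2 its direction depended on the share of cells taken, with 30.3% against 24.0% at matched depth in the highest 10%.

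Cells highest for the neuroblast list were read in the same way, since neuroblasts should hold little of these genes. *Slc1a3* was detected in 72.8% of them in culture 1 and 85.3% in culture 2, against 93.1% and 94.5% of the rest. Medians were 13945 and 13928 UMIs in these cells and 19706 and 14660 in the rest. Without matching for depth, *Slc1a3* was thus less frequent there but still in most cells. *Apoe* was detected in 39.0% and 32.3%, against 74.1% and 41.0%, and *Aldh1l1* in 15.3% and 19.8%, against 44.6% and 29.3%. *Slc1a2* had 27.5% and 27.5%, against 40.5% and 24.2%. *S100b* was higher, as in the cells highest for the oligodendrocyte progenitor list, with 25.1% and 7.65% against 18.3% and 6.59%. In culture 2 the interval of that share (5.10% to 10.9%) holds the share of the rest. At matched depth 40 and 42 of these cells remain. There, *Slc1a3* was detected in 85.0% against 94.7% of the rest in culture 1. In culture 2 it was detected in 92.9% against 95.2%, so its difference there nearly closed. *Apoe* was detected in 42.5% against 70.6% of the rest in culture 1 and in 35.7% against 40.1% in culture 2. *Aldh1l1* was detected in 25% against 37.3% and in 28.6% against 33.4%, and *Slc1a2* in 30.0% against 34.6% and in 21.4% against 24.5%. *S100b* had 20.0% against 13.4% and 9.52% against 7.48%. Because these cells are a range of a score and most of them detect *Slc1a3*, they set no clean background level, and how much of a low share such as that of *S100b* comes from free RNA was not tested.

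None of the members passed the threshold set for variation along the cell cycle in both cultures. The authors' position runs from 0 to 2π, and a fit of 2 harmonics of it gave the share of variance (R²) in each culture. Of the 5 members 0 reached 0.05 in both cultures, beside 4.01% of all genes, so a count of 0 among so few members says little. By the lower culture *Slc1a3* came closest, with 0.0121 in culture 1 and 0.0216 in culture 2. *Apoe* had 0.0539 in culture 1 and 0.0067 in culture 2. Against all genes the members were not low. R² of *Apoe* was above that of 94.8% of genes in culture 1 and 75.9% in culture 2, that of *Slc1a3* above 80.1% and 91.3%, and that of *S100b* above 87.4% and 54.2%. For *Aldh1l1* these were 77.5% and 71.5%, and for *Slc1a2* 79.3% and 48.8%. On periodic loess lines, *Apoe* had its maximum at 1.825π (culture 1) and 1.840π (culture 2), where the position returns to G1. Its minima differed, at 1.130π and 0.730π. The line moved by 0.58 on the log2(value + 1) scale in culture 1 and by 0.28 in culture 2. *S100b* was highest at 0.055π and 0.030π and moved by 0.17 and 0.06. *Slc1a3* peaked at 1.735π in the first culture and at 1.280π in the second, so its course was not shared. The stretch from 1.250π to 1.750π is thin in culture 1, with 85 and 64 cells in its arcs. *Aldh1l1* was highest at 1.770π and 0.055π, and *Slc1a2* at 0.075π and 0.880π. These positions depend on the span of the line. For *Slc1a2* in culture 2 the maximum was at 0.055π with a span of 0.2, and for *Aldh1l1* in culture 1 at 0.035π with a span of 0.5.

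In 8 equal arcs of the position, *Slc1a3* was detected in 86.1% to 94.7% of cells in culture 1 and 91.5% to 97.8% in culture 2. *Apoe* was detected in 64.4% to 79.5% and 35.9% to 45.5%. In the last arc, which holds its loess maximum, the share was the highest of culture 1 but 41.0% in culture 2, inside the range of the other arcs. Total UMIs per cell vary along the position too, with the loess line of log2 total UMIs highest at 0.890π and 0.915π and lowest at 1.735π and 1.745π. Of the *Apoe* variance left after a fit of log2 total UMIs and its square, the position took a share of 0.0921 in culture 1. In culture 2 that share was 0.0085. It is a share of what depth leaves, so it is not the same measure as the R² above.

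**Figure D5:**
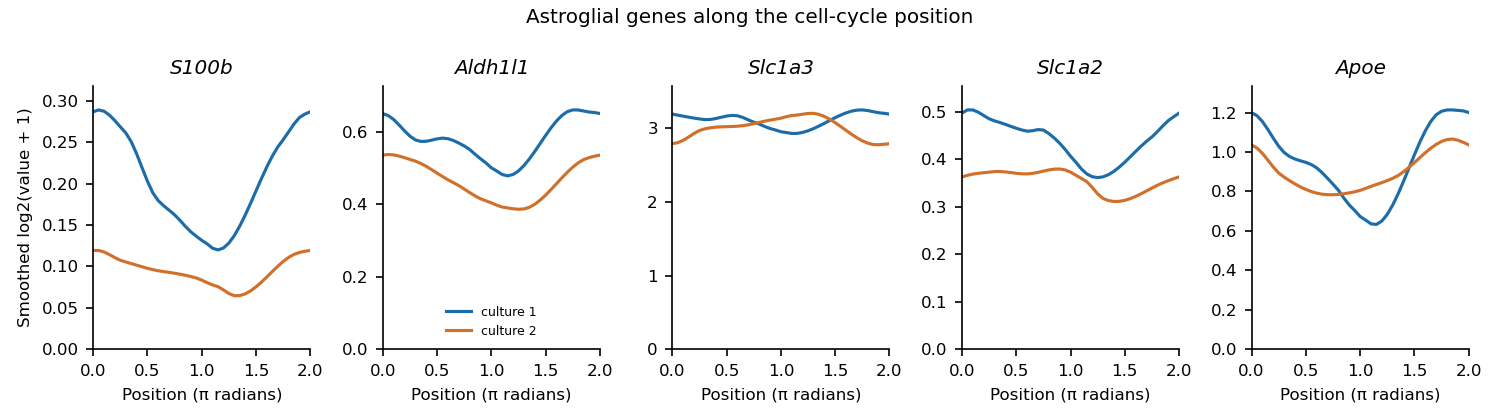
Periodic loess lines (span 0.3) of log2(value + 1) (y axis, from 0) along the cell-cycle position in units of π radians (x axis) for each member, in culture 1 (blue) and culture 2 (orange). *Apoe* is highest near 1.83π in both cultures, and the *Slc1a3* lines have their maxima at 1.735π and 1.280π; the height of the lines is not comparable between the cultures.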

How the data were processed

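Single cells of 2 replicate neurosphere cultures were measured with the 10x Chromium kit (version 2 per the labels, version 3 in the methods). The authors quantified spliced estimated counts with Alevin (Salmon 1.3.0) against GRCm38, removed outlying cells, including those with outlying doublet scores, and mitochondrial and rarely expressed genes, and normalized for library size. The submitters' processing notes also name Seurat 3.2.2. The deposited expression values are a signal on a linear scale. How the table was written is not given in the sources used here. The deposited estimated counts gave the total UMIs of each cell, and the position and stages are the authors' own. No cell type annotation or further doublet caller was used.

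Symbols were found for 10662 of 10666 genes, and coordinates are those of GENCODE M21. Values were transformed as log2(value + 1). The number of steps of a value is the value times total UMIs over the most frequent such product of that gene and culture. It was not used for *Slc1a3* and *Apoe*, whose values do not fall on such steps well enough, and no count model was used. Within 0.1 of a whole number of steps lay 81.9% and 85.5% of *S100b* values in cultures 1 and 2. Intervals are exact 95% Clopper-Pearson intervals. Depth limits precision more in culture 2. Scripts ran in Python 3.11.15 (pandas 2.3.3, scipy 1.17.1, numpy 2.4.6), and loess (degree 2) in R 4.3.3. The correlation and R² steps were tested on simulated data. The genes named are all members, the 3 nearest genes of each, and, of each list, the 4 with the highest mean and those at 0.1 with a member in both cultures, apart from an item that is not reported here. *Pdgfra* and *Cspg4* were named besides, to complete the oligodendrocyte progenitor list. Members, lists and thresholds were chosen with earlier results of these data known. The sorting of cells by *S100b*, *Slc1a3* or *Apoe* value was chosen after seeing the data. The alternatives were another detection level, matched depth, G1/G0 cells alone, rank correlation, other pseudocounts, thresholds, harmonics, spans and shares of cells, a filter on low genes, depth as a covariate and each culture left out.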

Additional observations from a re-analysis of the deposited data

How the results depend on the processing

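The mean number of members detected per cell, 2.30 over the cultures, was 1.85 at a value of at least 1. At that cut cultures 1 and 2 had 1.85 and 1.86, beside 2.66 and 1.94 in the main setting. Because values are scaled by gene and culture, the cut is not the same level in each culture. In cells near 15000 total UMIs, the lowest *Apoe* clusters of culture 1 (medians 0.231 and 0.529) lie below it. The lowest of culture 2 (1.71) lies above it. The near equality at that cut therefore does not show that the cultures agree. The mean number was 2.24 at matched depth and 2.34 in G1/G0 cells. It was 1.94 to 2.66 with 1 culture left out. Of member pairs, 4 reached 0.1 in both cultures under rank correlation, a pseudocount of 0.1 and partial correlation. The same 4 pairs were called at a threshold of 0.05 and, of 6 pairs left, with a filter on low genes. Of all 53305 pairs of a member with another gene, 554 were called under rank correlation and 521 with the pseudocount. Partial correlation called 497 of them and the threshold of 0.05 called 2506. With the filter it was 570 of 27568. At a threshold of 0.2 the count was 0, beside 90 of the 53305 pairs. In the shared range of depth it was 3, and pairs with other genes were not counted there. With 1 culture left out it was 4 in culture 2 alone, beside 689 of the 53305 pairs. In culture 1 alone it was 5, beside 3720, the fifth being *Slc1a2* with *Apoe*. Of members along the position, 0 reached R² of 0.05 under every alternative that keeps both cultures and that threshold. Beside this stood 406 to 439 of all 10666 genes, or 372 of 6896 with the filter. With depth as a covariate, R² here is the share of the variance left after depth. At 0.01 the count was 1 (*Slc1a3*), beside 1594 of the 10666 genes, so it says little. With 1 culture left out and the threshold of 0.05, it was 0 in culture 2 alone, beside 454 of the 10666 genes. In culture 1 alone it was 1, *Apoe*, beside 597. The excess of *S100b* detection in cells high for the radial glia list over the other cells was 0.530 percentage points on average over the cultures and changed sign, to -1.69 percentage points in the highest 2% of cells and -2.87 at matched depth, and the cause was not tested. Of the 10 loess maxima (5 members in 2 cultures), 5 moved by more than the spread between the cultures at a span of 0.5 and 3 at a span of 0.2. The ratio of mean levels between the cultures moved for *S100b*, *Aldh1l1* and *Slc1a2* when values were rescaled by their steps, so no such ratio is read. That rescaling and the use of the shared range of depth for pairs and list-high cells were added after seeing the data. With 2 cultures of 1 condition and values scaled by gene and culture, differences between the cultures have no test. No paired analysis was possible because there is 1 group.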

Other observations

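When *Apoe* was used to sort the cells, it gave the same order as *Slc1a3* for *Aldh1l1* in both cultures. For *Slc1a2* it did so in culture 1 only. From cells without *Apoe*, through those up to the median of detected values, to those above it, *Aldh1l1* was detected in 21.2%, 42.9% and 60.3% of cells of culture 1 and in 23.9%, 32.8% and 39.1% of culture 2. *Slc1a2* went through 27.5%, 38.7% and 50.5% in culture 1, while in culture 2 it had 22.8%, 27.3% and 26.1%, so its course differed between the cultures. At matched depth *Aldh1l1* went from 22.9% to 49.3% in culture 1, and the culture 2 shares were 29.0% and 47.6%. *Slc1a2* was detected there in 36.25% of cells with *Apoe* and 30.1% of those without it in culture 1. In culture 2 these shares were 24.3% and 24.4%.

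The table's highest value, 791, is shared by 3 cells for *Apoe* and 1 cell for *Mbp*, all of culture 2. Whether it is a limit set during processing was not tested.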
